A study of Mus musculus with 15 samples.

Results

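Very long genes are the autosomal protein-coding genes of GENCODE mouse release 21 whose annotated span is over 400 kb. The rule uses the span and no read count. It gave 338 of 20806 autosomal protein-coding genes, with 1 gene over 400 kb left out. Their spans ran from 400.2 kb to 4435 kb with a median of 565.6 kb, and together they covered 241.5 Mb and 1812203 CGs, 8.89% of the autosomal CGs. The shortest of them were Bnc2 at 400.2 kb, Dst at 400.4 kb and Fam189a1 at 400.5 kb, with a 5hmC level of 0.871, 1.58 and 0.781 times the autosomal mean. Just outside the rule lay Plxdc2 at 399.5 kb with 0.303 and Trdn at 396.2 kb with 0.364.

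5-hydroxymethylcytosine (5hmC) is made from 5-methylcytosine by the TET dioxygenases and is found mainly in gene bodies and at enhancers. In embryonic stem cells TET1 and TET2 maintain it, while CpG islands at promoters are kept free of methylation and so of its oxidized form. Very long genes consist almost wholly of introns, and many of them code for neuronal adhesion molecules, ion channels and receptors that pluripotent cells do not need, or lie at common fragile sites.

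The DNA came from E14TG2a, a line of mouse embryonic stem cells. hmTOP-seq reads 5hmC at single CG sites (5hmCG): BGT attaches an azide-glucose to 5hmC, an oligonucleotide (ODN) is tethered to it, and a polymerase starts from that ODN. Libraries were made from 500, 50 and 5 ng of DNA with 2 technical replicates each, and every input had 2 control libraries labelled K, which were prepared without BGT. uTOP-seq reads unmodified CGs (uCG) and was done at 300 ng with 3 replicates. All libraries came from 1 cell line without treatment, so that p-values measure only the spread between technical replicates. The 500-ng libraries had an autosomal coverage of 1.58 and 1.55 reads per CG, the 50-ng libraries of 1.12 and 1.07, and the 5-ng libraries of 0.722 and 0.741. The uCG libraries had 1.37, 1.11 and 0.972. A relative level below is the reads per CG of a gene, or of a piece of it, divided by the autosomal reads per CG of the same library, so that 1 is the autosomal mean. Neither assay gives the share of molecules that carry a mark.

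The K libraries at 500 ng held 9946 and 9225 autosomal reads. Of these, 721 and 728 fell in the very long genes, a share of 7.25% (95% Wilson interval 6.76 to 7.78%) and 7.89% (7.36 to 8.46%). In the labeled 500-ng libraries the share was 6.52% and 6.55%, from 2095353 and 2068099 reads. These intervals cover counting error only.

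The 3 uCG libraries differed from each other over a stretch of chromosome 14. In 500-kb windows, 42 of 4731 had a replicate below 0.6 times the highest replicate. Of these 38 lay between 40.5 and 98 Mb of chromosome 14 and 4 between 53 and 55 Mb of chromosome 10. In the stretch of chromosome 14 the relative uCG level was 0.488, 0.487 and 0.450 against 0.773, 0.774 and 0.778 on the rest of the chromosome. The 5hmC level was not low there, at 0.860 inside and 0.739 outside, and 0 of 4599 windows differed in this way between the 500-ng replicates and 1 of 4654 between the 50-ng replicates. Between the 5-ng replicates, which have the lowest coverage, 187 of 4676 windows did, on all 19 autosomes, with 10 on chromosome 14. Over all 6 labeled libraries together it was 326 of 4703 windows, 16 of them on chromosome 14. Atp8a2, Enox1, Diaph3, Pcdh9 and Klhl1 lie in this stretch and Slc35f1 overlaps the one on chromosome 10. Pcdh9, a protocadherin, had a relative uCG level of 0.266, 0.550 and 0.272 in replicates 1 to 3, so its low mean rests on 2 of the 3 libraries. The origin of these stretches was not tested, and uCG results are given with and without these 6 genes where they change.

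The sequences show what lay under the strongest 5hmC coverage away from exons in 2 of the 3 highest and 2 of the 3 lowest genes. Each is the plus strand of GRCm38, 200 bases long, with CGs in capitals. At the centre is the CG with the most 5hmC reads at 500 ng among those whose 200-base window overlaps no annotated exon. They lie at chr1:89750530-89750729 in Agap1, chr7:49398881-49399080 in Nav2, chr10:102044051-102044250 in Mgat4c and chr4:113772936-113773135 in Skint5.
Agap1: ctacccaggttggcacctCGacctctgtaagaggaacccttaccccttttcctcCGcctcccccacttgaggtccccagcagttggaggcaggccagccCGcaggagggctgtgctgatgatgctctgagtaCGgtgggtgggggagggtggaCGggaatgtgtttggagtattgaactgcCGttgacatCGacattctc
Nav2: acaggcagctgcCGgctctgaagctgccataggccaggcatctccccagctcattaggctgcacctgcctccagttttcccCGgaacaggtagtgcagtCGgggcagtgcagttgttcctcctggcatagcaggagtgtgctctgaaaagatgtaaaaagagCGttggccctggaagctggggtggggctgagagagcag
Mgat4c: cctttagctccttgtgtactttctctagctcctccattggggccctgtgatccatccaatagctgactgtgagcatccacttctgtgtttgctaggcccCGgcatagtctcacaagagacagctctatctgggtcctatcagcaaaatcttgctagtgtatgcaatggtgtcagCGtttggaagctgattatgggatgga
Skint5: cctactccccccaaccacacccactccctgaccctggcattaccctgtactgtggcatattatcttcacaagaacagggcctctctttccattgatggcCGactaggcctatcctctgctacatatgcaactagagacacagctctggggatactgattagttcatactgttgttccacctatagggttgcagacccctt
The central CG of the Agap1 window had 64 and 53 reads of 5hmC, and that of Nav2 74 and 51. The central CG of the Mgat4c window had 12 and 10 reads, and that of Skint5 9 and 2. The high windows held 7 and 4 CGs and the low ones 2 and 1. Repeat-masked bases made up 13.5% of the Agap1 and 0% of the Nav2 window, against 100% in Mgat4c and 86% in Skint5.

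Most very long genes lay below the autosomal mean in both marks. The median relative level was 0.511 for 5hmC and 0.699 for uCG, against 1.02 and 1.28 over all 20252 genes with at least 10 CGs. Only 52 of the 338 genes exceeded the autosomal mean in 5hmC and 37 in uCG, and in 259 the relative 5hmC level was below the relative uCG level. These were counted in the very long genes alone. Over all genes the median of 5hmC was also below that of uCG, so the last count shows nothing particular to the very long genes. Pooled over all their CGs, the genes stood at 0.735 ± 0.003 (SD, n = 2) in 5hmC and 0.785 ± 0.001 (SD, n = 3) in uCG. One locus weighed heavily in these sums. Gm20388, a predicted gene on chromosome 8 that overlaps 73 other coding genes, held 4.22% of the CGs and 13.68% of the 5hmC reads. Without the 7 genes that overlap 5 or more other coding genes (Gm20388, Camta1, Fgfr2, Gm42416, Gm37013, Gm37388 and Gm37240), the pooled levels were 0.633 ± 0.004 for 5hmC and 0.725 ± 0.002 for uCG.

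The level fell with span over the genes above 10 kb. Median relative 5hmC was 1.19 for genes of 10 to 50 kb, 1.01 for 50 to 100 kb, 0.967 for 100 to 200 kb, 0.746 for 200 to 400 kb and 0.511 above 400 kb. CG density fell along with it, from 12.6 CGs per kb to 7.12, and span and density cannot be told apart by span classes alone. At like density the very long genes were still lower in the median. Between 6 and 8 CGs per kb, 104 of them had a median of 0.470 and 920 genes of 50 to 400 kb had 0.549. Below 6 CGs per kb the medians were 0.257 and 0.344, and between 8 and 10 they were 0.794 and 0.812. Between 10 and 12 they were 0.973 and 1.12, from 43 and 903 genes. From 12 upwards they were 1.48 and 1.74, from 17 and 1261 genes. The interquartile ranges overlapped in each of these classes, and no test was made of this difference.

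**Figure D1:**
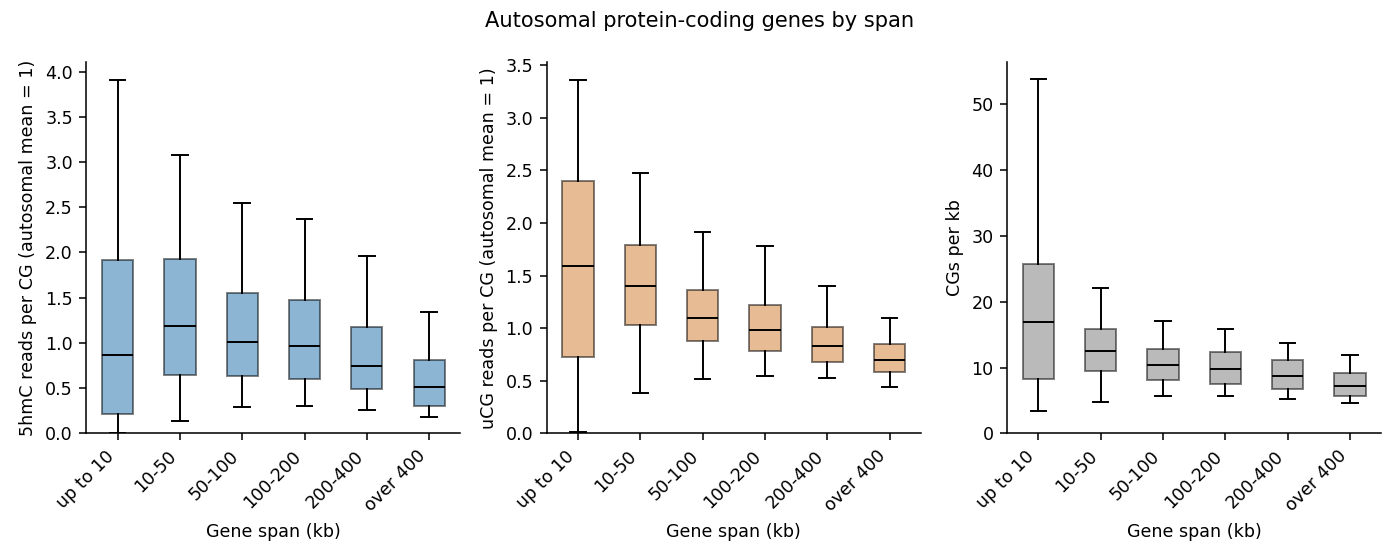
Relative 5hmC (left), relative uCG (middle) and CG density (right, CGs per kb) of autosomal protein-coding genes by span in kb, with boxes for quartiles, a line for the median and whiskers from the 5th to the 95th percentile. The genes over 400 kb had the lowest median in all 3 panels, at 0.511, 0.699 and 7.12 CGs per kb.

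Among the very long genes 5hmC ranged from close to 0 to 2.38 times the autosomal mean. After Gm20388, with 3.79 and 3.66 reads per CG in the 500-ng replicates, came Agap1, Nav2, Rbfox3, Slc39a11 and Arhgap26. Agap1, which codes for a GTPase-activating protein of Arf proteins, had 3.05 and 2.99 reads per CG (chr1:89454806-89897617). Nav2, a neuron navigator protein, had 3.02 and 2.98 (chr7:48908716-49610090). Rbfox3, the neuronal splicing factor known as NeuN, had 3.03 and 2.93 (chr11:118489762-118911597). Slc39a11, a zinc transporter, had 2.93 and 2.91, and Arhgap26, a GTPase-activating protein, had 2.86 and 2.88. The levels of Agap1, Nav2 and Rbfox3 overlapped between replicates, so their order is not fixed by these libraries.

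The bottom of the ranking held 2 groups. Skint6 (chr4:112804616-113286973) and Skint5 (chr4:113477891-113999503), neighbours in a family of immunoglobulin-like membrane proteins of skin and thymus, were nearly without reads. Skint6 had 0.001 and 0.004 reads of 5hmC per CG and Skint5 0.020 and 0.015. Their uCG levels were also the lowest, at 0.00421 and 0.0667 times the autosomal mean, and 99.8% and 98.2% of their CGs had no 5hmC read at 500 ng. Whether reads can be placed uniquely in these genes was not tested. Then came Mgat4c and Galnt13, both glycosyltransferases, Nrg3, a neuregulin, and Fstl5, a follistatin-like protein. Mgat4c had 0.194 and 0.212 reads of 5hmC per CG, Galnt13 0.195 and 0.220, Nrg3 0.210 and 0.217, and Fstl5 0.214 and 0.227, and neighbours in this order overlapped. Unlike the Skint genes they kept uCG reads, at 0.543, 0.434, 0.559 and 0.494 times the autosomal mean.

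**Figure D2:**
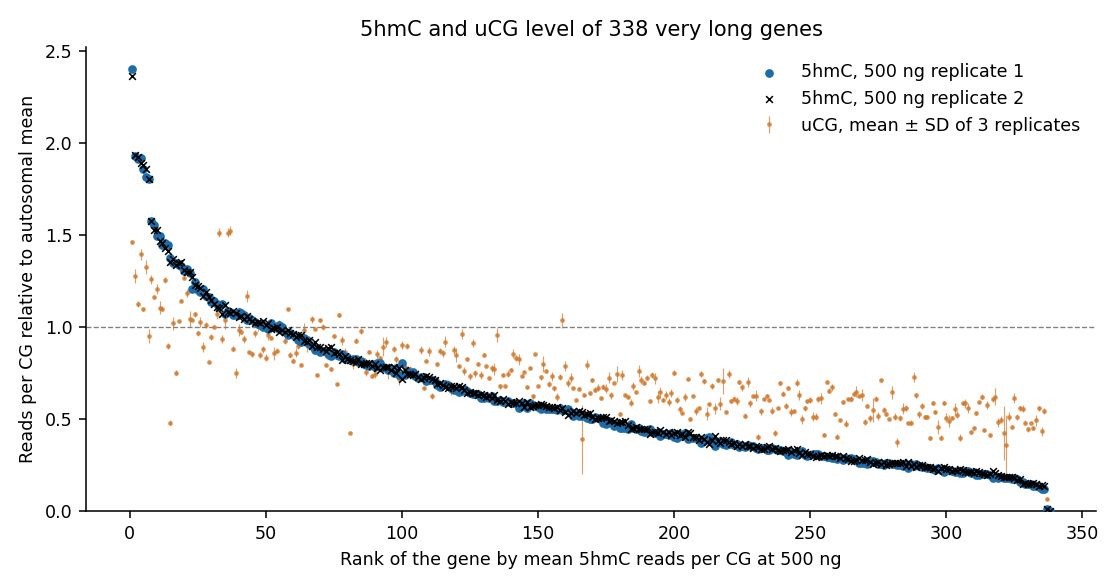
Relative level (autosomal mean = 1, dashed line) of the 338 very long genes in order of mean 5hmC reads per CG, with both 500-ng replicates (circles and crosses) and uCG as the mean ± SD of 3 replicates. Replicate circles and crosses nearly coincide, 5hmC falls from 2.38 to 0.00158, and uCG spans a narrower range over most ranks, with wide bars in genes of the chromosome 14 stretch.

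The ranking by 5hmC was closely shared between libraries. The Spearman correlation over the 338 genes was 0.998 between the 500-ng replicates, 0.997 between 500 and 50 ng and 0.985 between 500 and 5 ng. It was 0.878 between 5hmC and uCG (0.903 without the 6 genes in the uneven stretches), 0.875 between 5hmC and CG density, -0.749 with the share of CGs in repeats and -0.261 with span. These genes share libraries and base composition, and the values are descriptions. The highest uCG levels belonged to Gm42416, Gm37013 and Gm37388, predicted genes that overlap each other at the protocadherin clusters of chromosome 18. Each overlaps 61 other coding genes, a count that does not leave out the other predicted genes. They had relative uCG levels of 1.51, 1.51 and 1.52 and 5hmC levels of 1.11, 1.09 and 1.08. Beside Skint6 and Skint5 the lowest uCG mean was that of Pcdh9, and leaving out the uneven stretches it was that of Cpq, a carboxypeptidase, at 0.374. The relative 5hmC level of Cpq was 0.257.

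The other longest genes differed widely. The annotated Fgfr2, a fibroblast growth factor receptor, spans 2961 kb and overlaps 30 other coding genes in this release. It had 2.06 and 2.03 reads of 5hmC per CG. Ptprd, a receptor tyrosine phosphatase of synapses, spans 2271 kb and had 0.280 and 0.290. Cntnap2, a neurexin-like protein of axons, spans 2245 kb and had 0.448 and 0.439. The replicates of these 3 genes did not overlap.

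Grouped by function, genes of cell adhesion and synapse organization had the lowest median and transcription and RNA-binding factors the highest. The 56 adhesion genes had a median relative 5hmC of 0.325, with 31 among the lowest tercile of the ranking and 11 among the highest. They ranged from 0.136 in Nrg3 to 1.51 in Cdh4, a cadherin. The 32 ion channel and receptor genes had a median of 0.399, from 0.154 in Kcnh7, a potassium channel, to 1.45 in Grik4, a kainate receptor subunit. The 25 transcription and RNA-binding factors had 0.740, with 14 in the highest tercile, from 0.174 in Khdrbs2 to 1.91 in Rbfox3.

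Between these lay 11 extracellular matrix and heparan sulphate genes at 0.494, 22 common fragile site genes at 0.488, 24 signalling enzymes at 0.566 and 22 widely expressed genes at 0.615. In the fragile site group Wwox, an oxidoreductase, had 2.13 and 2.08 reads per CG, and Lrp1b, a lipoprotein receptor, 0.327 and 0.335. Among the widely expressed genes the ends were Arhgap26 at 1.84 and Gphn, which codes for gephyrin, at 0.280. Among matrix genes they were Slit3, a guidance cue, at 1.34 and Spock3, a proteoglycan, at 0.226. Among signalling enzymes they were Camk1d, a calmodulin-dependent kinase, at 1.24 and Erbb4, a receptor of neuregulins, at 0.146. Median CG density followed the same order at the ends, with 5.89 CGs per kb in adhesion genes and 9.53 in transcription and RNA-binding factors. The lists overlap and their levels were not tested against each other.

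Exons of very long genes carried more 5hmC per CG than their introns. Exons made up 1.11% of the span and 3.26% of the CGs, at 22.1 CGs per kb against 7.34 in introns. Pooled over genes, exonic CGs stood at 1.34 ± 0.02 and intronic CGs at 0.714 ± 0.003 times the autosomal mean (SD, n = 2). The coding sequence and the remaining exonic sequence differed from each other. Coding CGs had 1.74 and 1.70 in the 500-ng replicates, while untranslated exonic CGs had 0.785 and 0.772. uCG did not share this split, with 1.17 ± 0.01 in coding sequence, 1.30 ± 0.02 in untranslated exonic sequence and 0.770 ± 0.001 in introns (SD, n = 3). Without the 7 genes that overlap several others, the 5hmC values were 1.71 in coding sequence, 0.775 in untranslated exonic sequence and 0.607 in introns. These pooled values include CGs near transcription starts, and the split was not repeated without them. In the first kb of the genes, 18440 CGs stood at 0.501 in 5hmC and 1.88 in uCG.

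Gene by gene, 266 of 337 tested genes had more 5hmC in exons than in introns and 28 had less, by edgeR's quasi-likelihood test with Benjamini-Hochberg adjustment. Gm20696 was not tested, as it has 0 exonic CGs. Over all 17204 genes tested 48.1% were higher and 24.3% lower. The median log2 ratio was 0.94 in the very long genes and 0.31 over all genes. Above 50 kb it rose with span, with 0.20 at 50 to 100 kb, 0.38 at 100 to 200 kb and 0.55 at 200 to 400 kb. For uCG 281 of 337 were higher and 9 lower, against 40.9% and 16.8% of 17341 genes, with medians of 0.76 and 0.21. In the same span classes from 50 to 400 kb the uCG medians were 0.24, 0.35 and 0.49. Both marks were higher in the exons of 229 genes, while in 19 the exons had less 5hmC and more uCG, and in 6 the reverse. These joint counts were made in the very long genes alone, so they show nothing particular to them. The uCG excess depended on CGs close to transcription starts. With CGs within 2 kb of a start left out, the median log2 ratio of uCG fell from 0.76 to 0.38 (0.11 over all genes). Exonic uCG was then higher in 193 of 334 genes and lower in 17, against 3910 and 1917 of 14426 genes. The median for 5hmC was 1.05 (0.53 over all genes), with 272 of 334 higher and 14 lower, against 8280 and 2016 of 14392 genes.

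By gene group, more 5hmC in exons was called in 52 of 56 adhesion genes, 29 of 32 channel and receptor genes, 23 of 25 transcription and RNA-binding factors, 20 of 22 fragile site genes, 9 of 11 matrix genes, 17 of 24 signalling enzymes and 15 of 22 widely expressed genes. Less was called in 1, 1, 0, 0, 1, 3 and 2 of them in the same order. These counts stand beside 78.9% higher and 8.31% lower among all very long genes tested and 48.1% higher among all genes, and no group was tested against the others. The median log2 ratio ran from 0.62 in the widely expressed genes to 1.39 in the adhesion genes.

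The largest exonic excess was found in Luzp2, Kcnd2, Lingo2 and Cpq. Kcnd2, a potassium channel subunit, had 3.55 and 3.41 reads per exonic CG and 0.285 and 0.279 per intronic CG, a log2 ratio of 3.63 (adjusted p = 3.03e-250). Its coding sequence had 5.42 and 5.00 reads per CG and its untranslated exonic sequence 0.771 and 1.06. Lingo2, a leucine-rich repeat protein of neurons, had 3.23 and 3.16 in exons and 0.259 and 0.264 in introns, a log2 ratio of 3.61 (adjusted p = 9.11e-212). In both genes coding sequence had more reads per CG than untranslated exonic sequence. Without CGs within 2 kb of a start the log2 ratio of Kcnd2 was 1.70 (adjusted p = 5.54e-14) and that of Lingo2 was 3.79 (adjusted p = 8.93e-210).

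Luzp2 and Cpq lost the call without those CGs. Luzp2, a leucine zipper protein, had 3.45 and 3.04 reads per exonic CG against 0.249 and 0.253 in introns, a log2 ratio of 3.69 (adjusted p = 3.14e-138), but 40 of its 51 exonic CGs were untranslated and these had 4.05 and 3.52 reads per CG. Without CGs within 2 kb of a start its log2 ratio was -0.95 (adjusted p = 0.157). Cpq had 3.89 and 3.04 against 0.353 and 0.377, a log2 ratio of 3.25 (adjusted p = 3.10e-83), from 28 exonic CGs, and 0.47 (adjusted p = 0.296) without the CGs near a start.

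Exons were poorest relative to introns in Sugct, Hs3st4, Nkain2 and Fbxl17. Fbxl17, an F-box protein, had 0.338 and 0.292 reads of 5hmC per exonic CG against 1.38 in both replicates in introns, a log2 ratio of -2.13 (adjusted p = 3.89e-73). Hs3st4, a heparan sulphate sulphotransferase, had 0.0932 and 0.106 against 0.672 and 0.697, a log2 ratio of -2.78 (adjusted p = 8.19e-40). Nkain2, a protein that interacts with the sodium pump, had 0.0583 in both replicates against 0.379 and 0.383, and its exonic uCG went the other way with 1.78, 1.65 and 1.52 reads per CG against 0.698, 0.544 and 0.482. The log2 ratios of Nkain2 were -2.71 for 5hmC (adjusted p = 1.91e-17) and 1.53 for uCG (adjusted p = 5.09e-21). Sugct, a metabolic coenzyme A transferase, had 0.0625 and 0.0312 against 0.565 and 0.553 (log2 ratio -3.57, adjusted p = 2.66e-11), from only 32 exonic CGs. In Sugct, Hs3st4 and Fbxl17 the uCG ratio was not called. Without CGs within 2 kb of a start all 4 deficits in 5hmC were smaller and still called. The log2 ratio was then -0.30 in Fbxl17 (adjusted p = 0.0442), -1.50 in Hs3st4 (adjusted p = 0.000734), -1.32 in Nkain2 (adjusted p = 0.00994) and -2.77 in Sugct (adjusted p = 7.90e-06).

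**Figure D3:**
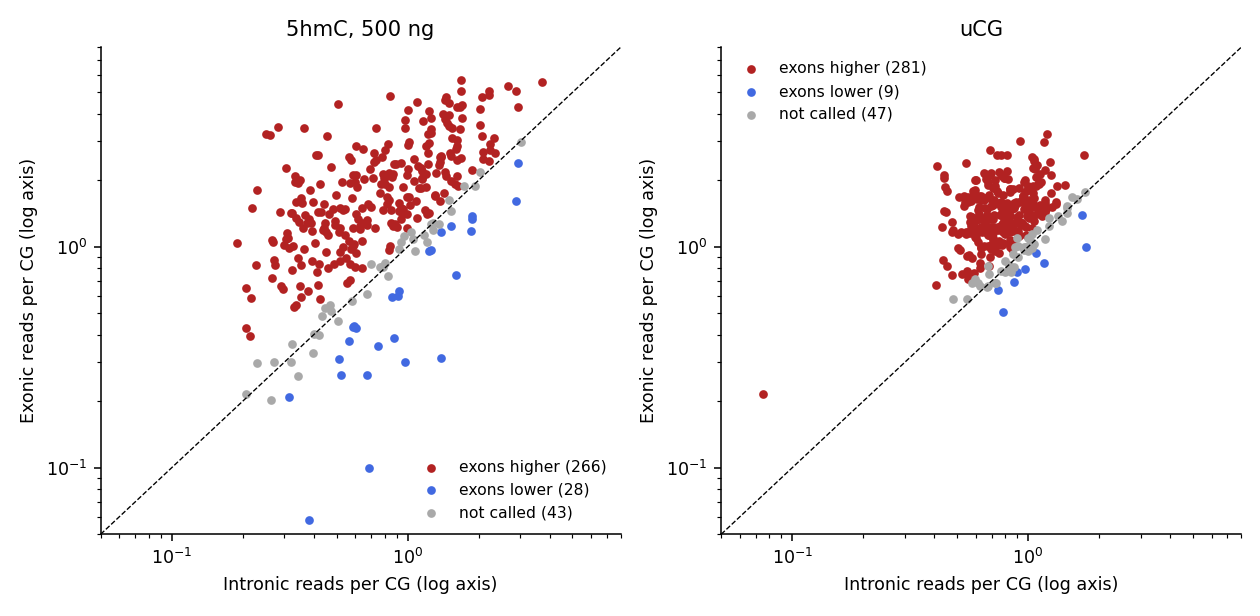
Exonic against intronic reads per CG of each very long gene on log axes, for 5hmC at 500 ng (left, mean of 2 replicates) and uCG (right, mean of 3), with the dashed line at equality and colours for genes called by edgeR's test. Most points lie above the line in both panels (266 and 281 genes called higher in exons), and genes called lower are mainly in the 5hmC panel (28 against 9). Points outside the axes (Sugct, Skint5 and Skint6 for 5hmC, Skint6 for uCG) and Gm20696, which was not tested, are not drawn.

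Along the gene, both marks were higher in the first and in the last 50 kb than in the steps next to them. In 50-kb steps from the transcription start, pooled relative 5hmC was 0.772, 0.688, 0.652, 0.611, 0.614, 0.591, 0.640 and 0.726. The SD between the 2 replicates was at most 0.00651 in these steps, so that the fall over the first 200 kb exceeded it. From the gene end backwards the level was 0.976, 0.809, 0.741, 0.717, 0.668, 0.639, 0.647 and 0.664. uCG was 1.01 in the first step and between 0.687 and 0.750 in the next 7, and 0.858 in the last step before the end. The last step was thus richer in 5hmC than the first, and the first was richer in uCG than the last.

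The 2 marks parted at the transcription start. In the first kb, where CG density was 54.6 per kb, relative 5hmC was 0.501 ± 0.016 and uCG was 1.88 ± 0.05. In the next kb 5hmC was 1.27 ± 0.02 and uCG 2.03 ± 0.02. From 2 to 5 kb the levels were 0.999 and 1.13, from 5 to 10 kb 0.806 and 0.925, and from 20 to 50 kb 0.756 and 0.801. 5hmC was thus depleted at the start itself and reached its maximum in the second kb.

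**Figure D4:**
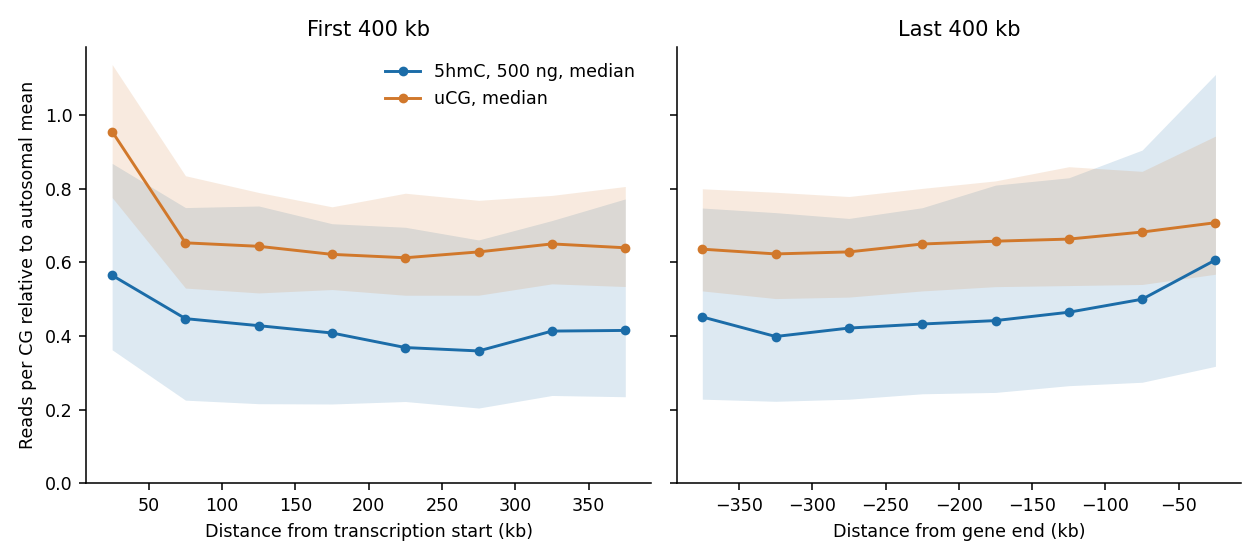
Median relative level over the 338 very long genes in 50-kb steps from the transcription start (left) and from the gene end (right), for 5hmC at 500 ng and uCG, with shading from the 25th to the 75th percentile of genes. uCG has a median of 0.955 in the first step and at most 0.708 in the others, and 5hmC has its highest medians in the first step (0.565) and the last (0.606).

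Tested in each gene against the interior, which is the gene without its first and last 50 kb, the first 50 kb had more 5hmC in 190 of 337 genes and less in 89, with Skint6 left out for too few reads. Over the 1408 genes of at least 150 kb 45.5% were higher and 33.9% lower. Here too the shares were not compared at like read number. The median log2 ratio was 0.29 in the very long genes and 0.08 over all genes tested. uCG was higher in the first 50 kb of 272 of 338 genes and lower in 27, against 73.3% and 11% of 1409 genes, with medians of 0.50 and 0.39. Both marks were higher in 176 genes, and in 50 the first 50 kb had less 5hmC and more uCG. The last 50 kb had more 5hmC than the interior in 198 of 338 genes and less in 80, against 54.6% and 22.8% of 1409 genes, a share close to that of all genes. In 97 genes both ends were higher in 5hmC. The counts for both marks and for both ends were made in the very long genes alone, so they show nothing particular to them. Without CGs within 2 kb of a start, the first 50 kb had a median log2 ratio in 5hmC of 0.12 in the very long genes and 0.10 over all genes, so that both medians lay close together. 5hmC was then higher in 157 of 337 and lower in 101, against 638 and 447 of 1408 genes. The median for uCG was 0.14 against 0.09, with 159 of 338 higher and 67 lower, against 564 and 310 of 1409 genes.

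Luzp2, Kcnd2 and Trhde had the largest excess in the first 50 kb. Luzp2 had 1.30 and 1.35 reads of 5hmC per CG there and 0.164 and 0.145 in the interior, a log2 ratio of 3.10 (adjusted p = 1.56e-42), which was 1.36 (adjusted p = 3.03e-18) without CGs within 2 kb of a start. Kcnd2 had 1.34 and 1.32 against 0.281 and 0.246, a log2 ratio of 2.34 (adjusted p = 8.68e-39), which was 0.11 (adjusted p = 0.502) without the CGs near a start. Trhde, an ectopeptidase that cleaves thyrotropin-releasing hormone, had 1.10 and 0.963 against 0.208 and 0.243, a log2 ratio of 2.19 (adjusted p = 5.67e-36). In all 3 the uCG ratio was called in the same direction, at 1.44, 0.57 and 1.08.

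Schip1 and Iqschfp were among the poorest at the start. Schip1, a schwannomin-interacting protein, had 0.400 and 0.311 in the first 50 kb and 1.32 and 1.38 in the interior, a log2 ratio of -1.93 (adjusted p = 2.25e-35), which was -2.63 without the CGs near a start. Iqschfp is a longer annotated gene that overlaps Schip1 and shares most of its CGs, and it had 0.396 and 0.381 against 1.20 and 1.24, a log2 ratio of -1.65 (adjusted p = 1.50e-33). The uCG ratios of Schip1 and Iqschfp were -0.48 and -0.65, both called.

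At the gene end Galntl6 and Cntnap2 had the largest excess. Galntl6, a glycosyltransferase-like protein, had 1.95 and 2.10 reads of 5hmC per CG in its last 50 kb and 0.361 and 0.360 in the interior, a log2 ratio of 2.49 (adjusted p = 4.54e-209). Cntnap2 had 1.88 and 2.02 against 0.398 and 0.388 (log2 ratio 2.31, adjusted p = 1.59e-178). The lowest ends were those of Xkr4, a membrane scramblase, with 0.117 in both replicates against 0.632 and 0.700 (log2 ratio -2.51, adjusted p = 3.28e-35), and Sh3gl2, which codes for an endophilin, with 0.367 and 0.356 against 1.17 and 1.09 (log2 ratio -1.64, adjusted p = 2.10e-43). Skint5 was also called lower, with 0 reads at the 189 CGs of its last 50 kb. A count of 0 allows up to 0.0159 reads per CG in a library, which lies between the 0.0204 and 0.0129 of its interior. The call by edgeR's test (adjusted p = 0.0115) was lost without the block, without repeats and with 25-kb steps. No difference is therefore read from it at this depth.

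**Figure D5:**
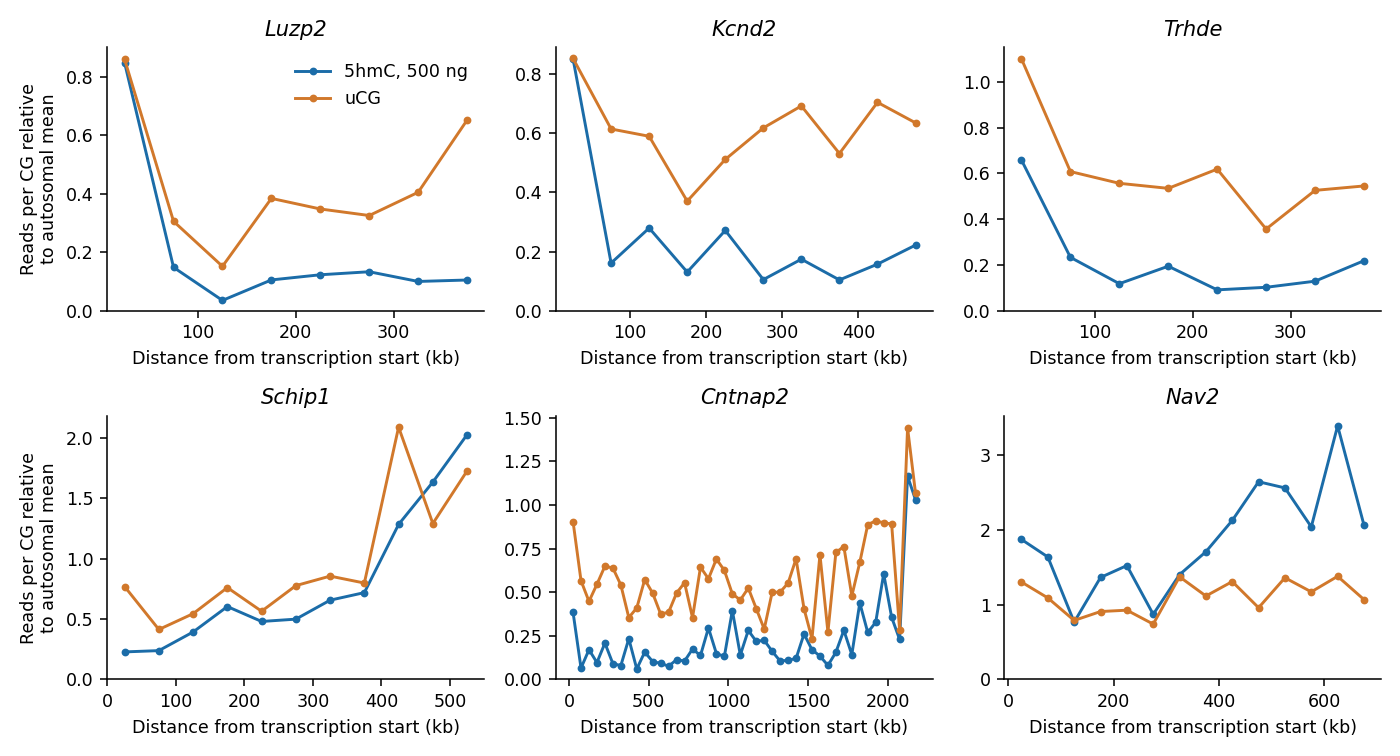
Relative 5hmC at 500 ng (mean of 2 replicates) and uCG (mean of 3) in the full 50-kb steps of 6 very long genes, against distance from the transcription start in kb. Luzp2, Kcnd2 and Trhde have their highest 5hmC step first, Schip1 and Cntnap2 have theirs at or near the end, and Nav2 has its highest in step 13 of 14 (3.40).

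Within single genes the level varied severalfold between 50-kb steps. Over 336 genes whose lowest step held a read, the highest step had a median of 4.05 times the lowest, with quartiles of 2.92 and 6.08, and the ratio exceeded 10 in 22 genes. The highest step was the first in 75 genes and the last full step in 69. These counts were made in the very long genes alone, with CGs near starts included, so they show nothing particular to them. In Gm20388 the highest step was step 14 of 88, with 8.12 and 7.76 reads per CG, and step 74 had 0.0151 and 0.0180. In Nav2 the highest step had 5.32 and 5.30 reads per CG. In Cntnap2 it was step 43 of 44, with 1.89 and 1.75 reads per CG against 0.105 and 0.0814 in step 9. Sntg1, a syntrophin, had 1.47 and 1.59 in step 17 and 0.0290 and 0.0870 in step 12, where the replicates lay far apart. Ratios to a lowest step with so few reads per CG are imprecise. A ratio of extremes also grows with the number of steps.

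Over the 4677 full steps 5hmC had a Spearman correlation of 0.763 with CG density and 0.750 with uCG. Within genes the median correlation over steps was 0.389 with density, positive in 288 of 338 genes, and 0.589 with uCG, positive in 320. Steps share libraries and neighbouring sequence, so these are descriptions.

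At the lower inputs the very long genes kept their place, with a small shift towards the autosomal mean. Their pooled relative 5hmC was 0.735 ± 0.003 in the 500-ng, 0.749 ± 0.004 in the 50-ng and 0.757 ± 0.004 in the 5-ng libraries (SD, n = 2 each). Coding CGs stood at 1.72 ± 0.03, 1.63 ± 0.03 and 1.62 ± 0.02 and introns at 0.714, 0.731 and 0.740. No gene was called between inputs by edgeR's quasi-likelihood test with Benjamini-Hochberg adjustment, in the very long genes (0 of 337 in each comparison, again without Skint6) or in all (0% of 17753 genes at 50 ng and 0% of 16604 at 5 ng). At an unadjusted p under 0.05, 154 of 337 differed at 50 ng and 119 of 337 at 5 ng, against 2182 of 17753 and 2023 of 16604 genes. More reads make a small p likelier for the same shift. The very long genes held a median of 3570 reads at 500 ng, and the shares were not compared at like read number. The log2 ratio to 500 ng was above 0 in 296 of 337 genes at 50 ng and in 286 of 337 at 5 ng, with medians of 0.10 and 0.17, against 0.00207 and 0.01 over all genes. DESeq2 called 12 of the very long genes higher and 2 lower in the 50-ng libraries, against 14 and 15 of all 17753 genes. With 5 ng it called 78 higher and 5 lower, against 564 and 393 of all 16604 genes.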

How the data were processed

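Reads of 5hmC and uCG were counted per CG in 12 hmTOP-seq libraries (6 labeled, 6 K) and 3 uTOP-seq libraries of E14TG2a DNA, and all 15 columns were used. According to the study's methods the authors mapped reads to mm10, filtered them by length and mapping quality, removed duplicates sharing start and read length, and assigned reads to CG sites. The deposited values are raw read counts per library, not normalized or pooled, with both strands merged for 5hmC and by strand for uCG (summed here). Reads that cannot be placed uniquely are lost, so low counts in repeats can be low mapping. Positions matched the CGs of GRCm38 on all 19 autosomes. Duplicates were removed without molecular identifiers.

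The 500-ng libraries held 32502791 and 31918445 reads in total, the 50-ng libraries 23027170 and 22052535, the 5-ng libraries 14884939 and 15277636, and the uCG libraries 28412885, 23078739 and 20120568. The K libraries held 3409 to 10072 reads.

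Genes came from GENCODE release 21. 1 gene that meets the span rule, and some genes and sequences that the naming rules pick, are not reported here. Exons were the union of exons of protein-coding transcripts, and introns the rest of the span, including exons of nested genes. Reads were summed per gene piece. Pieces were compared within genes by edgeR's quasi-likelihood test on counts, with library as block and an offset for library total and CG number, over all genes with at least 10 CGs in each piece and 10 reads. End comparisons used genes of at least 150 kb. Inputs were compared with TMM normalization and at least 10 reads per library. The threshold was an adjusted p (Benjamini-Hochberg) of 0.05. The members, gene lists and tests were chosen with earlier results of these data known. Genes named in the text are the 6 highest and 6 lowest in 5hmC, the 4 longest, the 3 highest and 3 lowest in uCG, the ends of each gene list, the 4 highest and 4 lowest exon to intron ratios among those called, and the 3 highest and 3 lowest ratios of each gene end. The rule also named genes called between inputs, of which there were none. The genes of the uneven uCG stretches, those overlapping several others, those next to the span limit and Sntg1 were named after their values were seen.

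Tools were R 4.3.3, edgeR 4.0.16, DESeq2 1.42.0, Python 3.11.15, numpy 2.4.6, pandas 2.3.3, scipy 1.17.1 and matplotlib 3.10.9. Tested on simulated data with 200 genes changed 2-fold, the fits recovered 92% (exon, 5hmC), 91.5% (exon, uCG), 100% (first 50 kb, 5hmC), 98% (50 ng) and 2.5% (5 ng). Alternatives left out CGs near starts, CGs in repeats, reads above 20 per CG, the filter, the block and single replicates, and used coding sequence alone, 25-kb steps, spans over 500 kb, another size factor and DESeq2.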

Additional observations from a re-analysis of the deposited data

How the results depend on the processing

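Among the alternative values for the comparisons, 106 stayed within 1.5 times the count, or within the replicate spread, of the reported one and 37 moved. For exons against introns, genes lower in 5hmC were 14 of 334 without CGs within 2 kb of a start (2016 of 14392 over all genes). They were 13 of 333 with coding sequence alone (2712 of 16123) and 12 of 218 with spans over 500 kb (4181 of 17204). Genes lower in uCG were 17 of 334, 8 of 333 and 4 of 218 under the same settings, against 1917 of 14426, 2952 of 16220 and 2917 of 17341. When a replicate was left out they were 5 to 7 of 337, against 2412 to 2549 over all genes. With spans over 500 kb only 218 genes enter. The first 50 kb was then higher in 121 and lower in 55 for 5hmC, against 640 and 477 of 1408 genes. For uCG it was higher in 177 and lower in 15, against 1033 and 155 of 1409. The last 50 kb was lower in 5hmC in 48, against 321 of 1409. Without CGs near starts uCG of the first 50 kb was higher in 159 and lower in 67 of 338, against 564 and 310 of 1409. With a single library left, the 5hmC comparisons within genes give a median and no test.

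The median relative 5hmC of 0.511 was 0.482 without repeats, 0.522 relative to the own chromosome, 0.529 with at most 20 reads per CG and 0.552 at 50 ng. The first step over the next 7 was, for 5hmC, 1.39 as the median over genes and 1.20 without CGs near starts. It was 1.20 without the genes that overlap 5 or more others, an alternative chosen after seeing the data. For uCG the values in the same order were 1.50, 1.13 and 1.42. Leaving out the genes in the uneven uCG stretches, also chosen after seeing the data, gave 276 and 9 genes for exons and 266 and 27 for the first 50 kb.

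Between inputs no gene was called, but other settings made calls. DESeq2 called 12 higher and 2 lower at 50 ng (14 and 15 of all 17753 genes) and 78 and 5 at 5 ng (564 and 393 of all 16604). A replicate block called 21 higher and 1 lower at 50 ng, against 36 and 42 of all 17753 genes, and no gene at 5 ng. The replicate numbers did not pair the libraries (r of same-numbered deviations 0.0279 and -0.00689), so this block joins libraries that share only a number. Leaving out 1 library of an input gave 0 to 129 higher and 0 to 7 lower at 50 ng (129 and 7 without 50 ng replicate 1, 91 and 5 without replicate 2), and 0 to 201 higher and 0 to 29 lower at 5 ng (190 and 29 without 5 ng replicate 1, 201 and 29 without replicate 2). The lone low-input library is then assumed to vary like the 500-ng libraries. The simulated 2-fold changes were recovered at 2.5% for 5 ng, so the absence of calls there limits little. The within-gene calls without the library as block were within 1.5 times in each comparison.

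Of the single genes named, Luzp2 reversed for exons without CGs near starts (-0.95), and 6 values lost their call. These were Cpq for exons without CGs near starts (0.47) and with coding sequence alone (0.75), Kcnd2 for the first 50 kb without CGs near starts (0.11), and Skint5 for the last 50 kb in 3 settings. The cause of these changes was not tested.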

Other observations

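Enox1 and Atp8a2, which lie in the uneven stretch of chromosome 14, had the lowest uCG for their 5hmC among the very long genes, with relative levels of 0.481 and 0.427 in uCG and 1.37 and 0.821 in 5hmC. All 3 uCG replicates were low in both genes. In Diaph3, a formin, replicates 1 and 3 were low (0.298 and 0.270) and replicate 2 was not (0.605). In Klhl1 only replicate 3 was low (0.256, against 0.521 and 0.494). The extent of the stretch thus differed between libraries of the same DNA, and what lies behind it was not tested.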
